A study of Oryza sativa with 4 samples.

Results

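The translated RNA of 2 rice genotypes grown without added salt was compared: IR29, a salt-sensitive cultivar, and Pok, the salt-tolerant landrace Pokkali. The comparison is of 1 polysomal library from IR29 control seedlings with 1 from Pok control seedlings. Members were the annotated transcripts that reached 5 FPKM (fragments scaled to transcript length and to the mapped total of the library) in at least 1 of these libraries, which held for 10625 of the 57629 annotated transcripts and of the 89715 assembled transcripts in the table. Both groups were seedlings about 24 days old, floated on Yoshida nutrient medium in a growth chamber and harvested without added NaCl. A further library of each genotype came from seedlings of the same age given 150 mM NaCl for 24 h, and these libraries (IR29 salt and Pok salt) are used below only to set the control values beside those of other libraries. The material was seedlings ground in bulk, with no separation of roots and leaves named in the methods, and fewer cells of a type cannot be told apart from less RNA per cell. Replicates were pooled before sequencing, as the study's methods state for the RNA of each treatment. There was thus 1 library a side. No spread between replicates, p-value or interval can be given, and the genotype cannot be told apart from its library.

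Polysomal RNA is messenger RNA that carries several ribosomes at once. It is obtained by spinning a cell extract through a sucrose gradient and keeping the dense fractions, and its sequence profile is called the translatome, since a messenger loaded with ribosomes is one being made into protein. A difference in polysomal RNA between genotypes can come from the amount of the messenger as well as from its loading, and only the polysomal values are used here. Pokkali has long served as a donor of salt tolerance in rice breeding, and in rice seedlings the entry of sodium through the root, its exchange for potassium and its storage in the vacuole are known to differ between genotypes.

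As deposited, 1167 of the 10625 transcripts were at least 2-fold higher in Pok control (11% of those considered), 703 were at least 2-fold lower (6.62%) and 8755 (82.4%) were neither. The whole profile was displaced: for the 7424 transcripts that reached 5 FPKM in each of the 4 libraries, Pok control over IR29 control had a median log2 ratio of 0.33, a 1.26-fold shift. After this shift was taken out (called centring below), 613 transcripts were higher (5.77%) and 973 were lower (9.16%), so the balance of the direction turned. Both ways of scaling gave the same call for 613 higher and 703 lower transcripts. All further log2 ratios are of (FPKM + 1), Pok over IR29, which understates changes of weakly expressed genes. Over the transcripts considered the median of this ratio was 0.32, with quartiles of 0.00 and 0.60, and Pearson's r between the log2 values of the controls was 0.892 across 8097 transcripts at 5 FPKM or more in both (a description across transcripts of 1 library each). Transcripts above 0 in both controls differed over 10-fold in 49 cases upward and 99 cases downward. Close to the 2-fold limit the calls rest on small differences: glutaredoxin Os05g48930.1 (8.99 and 18.0 FPKM in IR29 and Pok control) lay just inside it, and the chitinase CHIT14, Os10g39680.1 (28.5 and 14.3 FPKM), just outside.

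**Figure D1:**
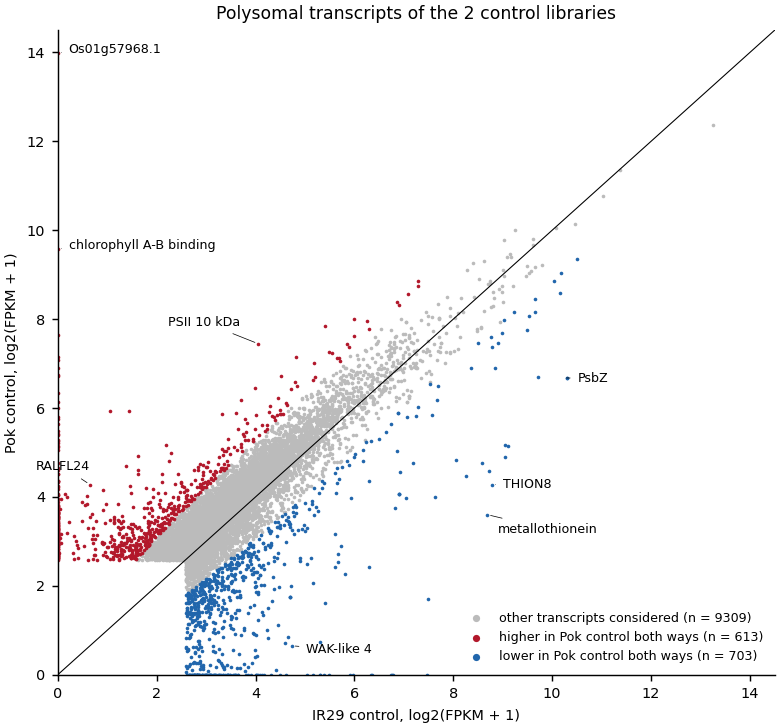
Each point is 1 of the annotated transcripts considered, placed by its log2(FPKM + 1) in IR29 control (x axis) and in Pok control (y axis), with the line of equal values. The 613 transcripts that were higher in Pok both as deposited and after centring are red, the 703 lower ones blue, and points on an axis line are transcripts listed at 0 in 1 library.

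The deposited table holds no read counts. The study lists read totals for each library, which are not used here. Low values carry a trace of the relative depth: among 4107 transcripts alone in their locus and under 0.3 FPKM in both controls, the commonest ratio of Pok over IR29 was 1.87 (306 transcripts in a bin of 0.02 log2, against a mean of 9.91 per bin). A peak of this kind is where 1 read in each library would lie, with 1 read worth more FPKM in Pok control. Only 17.4% of the ratios lay within 0.05 log2 of this value or of 1 log2 unit to either side of it, so reads were not recovered.

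Thionins were lower in Pok control in most measured members. They are cysteine-rich peptides that damage microbial membranes, and many of the rice genes lie in a tandem block on chromosome 6. Of 17 thionin transcripts at a mean of 1 FPKM or more in the controls, 10 were at least 2-fold lower in Pok control, both as deposited and after centring, and 0 were higher, against 4.08% lower and 6.77% higher (5.64% and 3.55% after centring) of the 17244 transcripts at that mean. Their median log2 ratio was -3.24 as deposited and -3.56 after centring, where the median of all was 0.24 and -0.04. THION8, Os06g32200.1 (chromosome 6, 18750702 to 18752695 in MSU v6.1), was at 439 and 271 FPKM in IR29 (control, salt) and 18.4 and 139 in Pok. THION3, Os06g31890.1, was the most abundant of them, with 554 and 484 FPKM in the IR29 libraries (control, salt) and 34.4 and 199 in those of Pok. In both, Pok control was the lowest library and Pok salt lay between it and IR29. The thionin-like peptide Os07g24830.1 on chromosome 7 gave the same order, with 266 and 208 FPKM in IR29 (control, salt) and 27.2 and 100.05 in Pok. A further gene of the block, Os06g31930.1, annotated as a thionin precursor, was not caught by the wording that defined the list and is not in its counts; it was at 421 and 306 FPKM in IR29 (control, salt) and at 22.9 and 147 in Pok. THION26, Os03g08710.1, on chromosome 3, was short of the limit, at 11.8 FPKM in IR29 control and 9.52 in Pok control. In 7 of the 17 both Pok libraries were at least 2-fold below both IR29 libraries. Copies in the block are alike in sequence, so reads shared between them may have been divided arbitrarily and the single values are less certain than the group.

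RALF peptides (rapid alkalinisation factors) are secreted signals that bind receptor kinases at the cell surface and restrain root growth in Arabidopsis. This group was added after values were seen. Of 21 measured RALF transcripts 10 were lower in Pok control and 2 were higher as deposited, with 10 and 1 after centring, and a median of -1.28 (-1.53 centred). Of all transcripts 4.08% were lower and 6.77% higher as deposited, and 5.64% and 3.55% after centring. In 3 of the 21 a control was listed at 0, which may be a failed estimate, as taken up below. The family was not uniform. RALFL24, Os11g26340.1 (chromosome 11, 14611551 to 14612280), had the largest upward ratio among transcripts above 0 in the 4 libraries once expressed, hypothetical and transposon proteins were left out: it was at 0.573 and 0.614 FPKM in IR29 control and salt and at 18.4 and 18.2 in Pok control and salt, a log2 ratio of 3.62 between the controls. RALFL37, Os04g31410.1, showed the reverse, with 14.9 and 8.37 FPKM in the IR29 libraries and 0.320 and 0.128 in the Pok libraries. The abundant RALFL28, Os06g29730.1, was at 119 and 168 FPKM in IR29 (control, salt) and at 15.8 and 35.6 in Pok. Its second transcript, Os06g29730.2, was at 79.3 FPKM in IR29 control and was listed at 0 in both Pok libraries. RALFL26, RALFL27 and RALFL29, neighbours in 1 assembled locus on chromosome 10, were all lower in Pok control, for example RALFL27, Os10g41999.1, at 10.6 against 1.06 FPKM. RALFL9, Os01g15320.1, was level, with 35.0 FPKM in IR29 control and 34.9 in Pok control. In 6 members both Pok libraries were at least 2-fold below both IR29 libraries, and in RALFL24 both were above.

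Metallothioneins, small cysteine-rich proteins that hold copper and zinc and quench radicals, were another abundant family with a wide shift. Of 9 measured members 7 were lower in Pok control as deposited and 8 after centring, and 0 were higher, with a median of -1.72 (-2.04 centred). Of all transcripts 4.08% were lower and 6.77% higher as deposited, and 5.64% and 3.55% after centring. Os01g05585.1 had the largest downward ratio under the same limits: its values were 410.3 and 191 FPKM in IR29 (control, salt) and 11.1 and 141 in Pok, and the log2 ratio was -5.08 for the controls but -0.44 for the salt pair. Its neighbour in the same assembled locus, Os01g05650.1, was at 226 and 128 FPKM in the controls of IR29 and Pok, short of the limit. The type 3 gene Os05g11320.1 stood the other way, with 60.0 FPKM in IR29 control and 106 in Pok control. In none of the 9 were both Pok libraries 2-fold below both IR29 libraries.

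**Figure D2:**
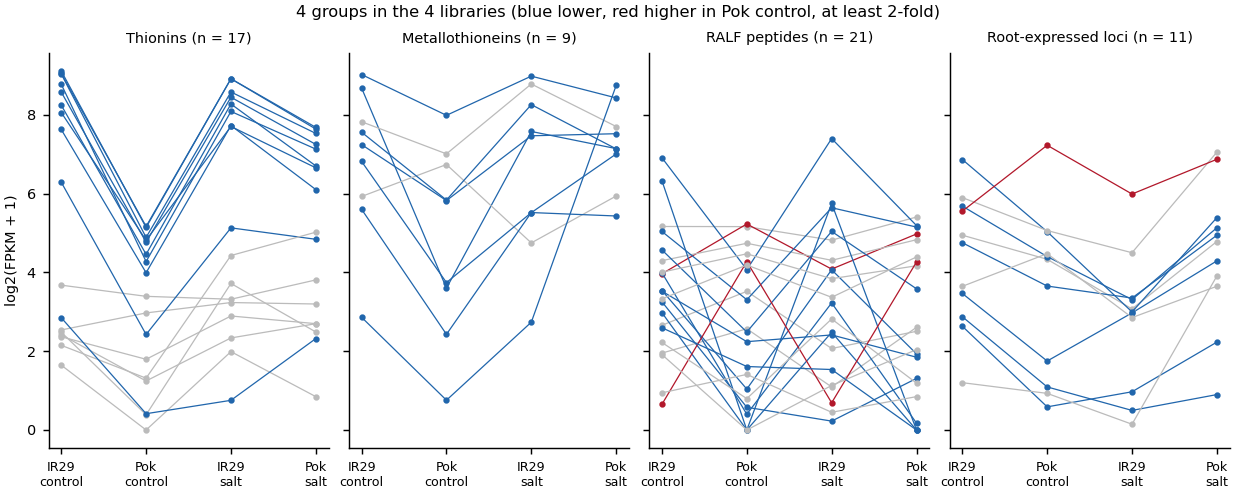
Each line joins the log2(FPKM + 1) values (y axis) of 1 transcript in IR29 control, Pok control, IR29 salt and Pok salt (x axis), for 17 thionins, 9 metallothioneins, 21 RALF peptides and 11 root-expressed transcripts. Blue lines were at least 2-fold lower and red lines at least 2-fold higher in Pok control as deposited. The thionins of the block dip in Pok control and remain lower in Pok salt than in IR29 salt.

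Other defence and detoxification families were mixed as deposited, where 6.77% of all transcripts were higher and 4.08% lower. After centring, 3.55% of all were higher and 5.64% lower. Each family counted below with a member past the limit then had more lower than higher, apart from superoxide dismutases, catalases and ascorbate peroxidases. Among 21 pathogenesis-related and thaumatin transcripts 4 were higher and 3 lower (1 and 5 after centring), with a median of 0.10, or -0.14 centred. The pathogenesis-related Bet v I protein Os04g39150.1 was at 63.0 and 80.6 FPKM in IR29 control and salt and at 257 and 242 in Pok control and salt. The thaumatin Os12g43490.1, of a family with antifungal members, was at 8.39 and 14.6 FPKM in IR29 against 0.263 and 1.01 in Pok. None of the 35 measured NBS-LRR transcripts, which encode intracellular resistance receptors, passed the limit in either direction. A call needed 5 FPKM in a control, and their summed FPKM was only 75.8 in IR29 control and 78.4 in Pok control. Members under that level could not pass whatever their ratio, so the lack of calls does not show that the family was level. Proteinase inhibitors, which block the digestive enzymes of insects, had 6 of 23 lower and 0 higher (7 and 0 after centring). Dirigent and jacalin lectin proteins had 4 of 34 each way, but 2 higher and 5 lower after centring. The dirigent Os12g12600.1 was at 18.1 FPKM in IR29 control and 1.83 in Pok control, and another, Os11g42500.1, at 56.8 and 172. Among 92 UDP-glucosyltransferases, which attach sugars to hormones and defence compounds, 5 were higher and 8 lower (1 and 11 after centring). Among 42 glutathione S-transferases, which tag toxic compounds, 4 were higher and 5 lower (0 and 5 after centring). The glucosyltransferase Os02g37690.1 was at 18.1 and 12.6 FPKM in IR29 control and salt and at 0.782 and 0 in Pok (control, salt). Superoxide dismutases, catalases and ascorbate peroxidases had 3 of 19 higher and 1 lower (2 and 1 after centring). The lower one was the copper/zinc superoxide dismutase transcript Os07g46990.2. It was at 54.7 and 13.8 FPKM in IR29 (control, salt) and 3.84 and 10.5 in Pok, so only IR29 control stood high. Among the higher was the catalase Os06g51150.1, at 2.90 FPKM in IR29 control and 10.1 in Pok control.

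Receptor kinases at the cell surface, which sense wall fragments, peptides and brassinosteroids, were read beside all transcripts. Of these 6.77% were higher and 4.08% lower as deposited, and 3.55% and 5.64% after centring. Of 111 leucine-rich repeat receptor kinase transcripts 3 were higher and 1 was lower as deposited, but 0 and 3 after centring. Of 16 wall-associated kinase transcripts 2 were lower and 0 higher either way. Among the kinases that passed were receptors with a wide gap. Wall-associated receptor kinase-like 4, Os11g46860.1 (assembled locus on chromosome 11, 27596065 to 27662394), was at 25.6 and 22.7 FPKM in IR29 control and salt and at 0.570 and 0.153 in Pok control and salt. The kinase Os06g16300.1, annotated as a BAK1-type co-receptor of the brassinosteroid receptor, was at 14.7 and 7.73 FPKM in IR29 against 0.897 and 0.540 in Pok. For both genes the genotypes did not overlap in these libraries.

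Families of wall and surface proteins ran in different directions. The shares over all transcripts were 6.77% higher and 4.08% lower as deposited (3.55% and 5.64% after centring). Xyloglucan enzymes, which remodel wall polymers, had 7 of 24 higher and 0 lower as deposited (2 and 2 after centring). Glycine-rich proteins had 10 of 34 higher and 8 lower (5 and 11 after centring), and 4 of the 34 were listed at 0 in a control. Such zeros, taken up below, may be failed estimates. Class III peroxidases, which cross-link wall polymers and generate or remove peroxide, had 24 of 94 lower and 2 higher (26 and 1 after centring). Their median was -0.37 (-0.61 centred). Between the salt libraries the median was 0.62, over the peroxidases at a mean of 1 FPKM or more there, which need not be the same members. Os01g18970.1 was at 16.7 FPKM in IR29 control and 1.53 in Pok control, and at 0.0427 and 1.94 in the salt libraries of IR29 and Pok. Lipid transfer proteins, which carry cutin and wax precursors, had 18 of 76 lower and 8 higher with a median of 0.03 (-0.27 centred). LTPL120, Os04g46810.1, was at 32.1 and 4.65 FPKM in the controls of IR29 and Pok but at 0.534 and 7.76 in the salt libraries, the opposite order. LTPL123, Os04g52250.1, was at 3.57 FPKM in IR29 control, against 23.5 in IR29 under salt and 35.2 and 40.4 in Pok (control, salt), and LTPL105, Os12g29160.1, was lower in both Pok libraries (0.121 and 0.0465 FPKM) than in both IR29 libraries (6.66 and 2.28). Among 67 GDSL lipases, which release or assemble surface lipids, 6 were higher and 0 lower (2 and 0 after centring). Of the 67, 2 were listed at 0 in a control. Of 46 pectin-modifying enzymes 8 were higher and 1 lower (4 and 1 after centring), among them the pectinesterase Os01g21034.1 at 5.51 FPKM in IR29 control and 18.5 in Pok control. Of 16 SCP-like extracellular proteins 2 were higher and 5 lower, with a median of -0.77 (-0.92 centred), and the higher member Os01g28450.1 stood at 1.61 and 3.38 FPKM in IR29 control and salt and at 24.9 and 50.8 in Pok.

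**Figure D3:**
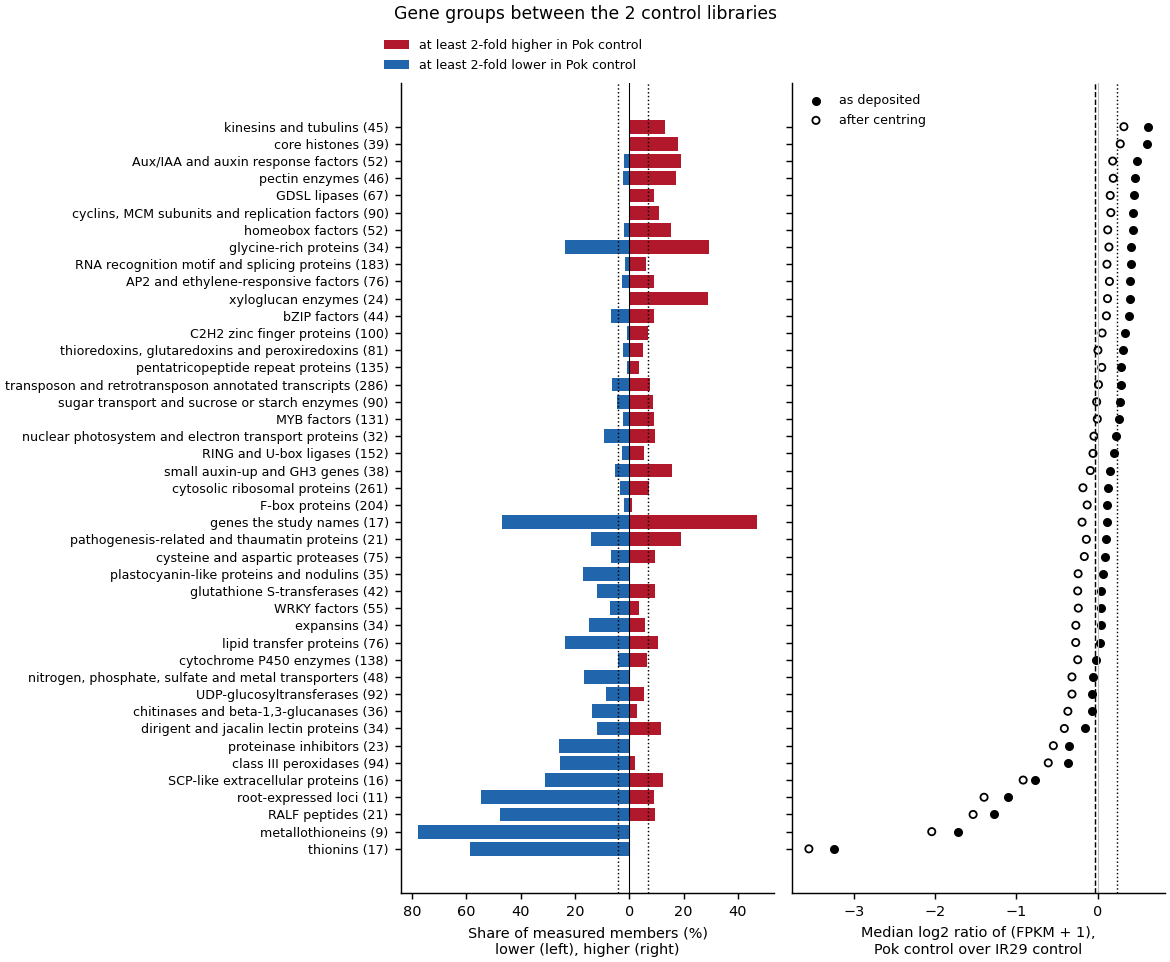
Gene groups with 6 or more members past 2-fold, with the number of measured members in brackets. Left, the share of measured members (x axis, %) that was at least 2-fold lower (blue) or higher (red) in Pok control as deposited, with dotted lines at 4.08% and 6.77%, the shares over all 17244 transcripts. Right, the median log2 ratio of (FPKM + 1) as deposited (filled) and after centring (open), with lines at the medians of all transcripts, 0.24 (dotted) and -0.04 (dashed). Thionins, metallothioneins, RALF peptides and root-expressed loci lie farthest to the lower side.

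Loci known to be expressed mainly in roots were examined because the whole seedling was sampled. Of 11 measured transcripts 6 were lower in Pok control, 1 was higher and the rest did not pass the limit as deposited (7 lower and 1 higher after centring), with a median of -1.10 (-1.40 centred). Of all transcripts 4.08% were lower and 6.77% higher as deposited, and 5.64% and 3.55% after centring. The root-specific RCc3 gene Os02g44310.1 (LTPL112) was at 116 FPKM in IR29 control and 31.8 in Pok control. The silicon channel Lsi1, Os02g51110.1, was at 50.4 and 20.2 FPKM, and the silicon exporter Lsi2, Os03g01700.1, at 26.0 and 11.6. The ammonium transporter gene AMT1;3, Os02g40710.1, was at 5.21 and 0.502 FPKM. The tonoplast aquaporin TIP2;2, Os06g22960.1, was the exception at 46.1 and 149 FPKM. Between the salt libraries the list had a median of 1.71, over its members at a mean of 1 FPKM or more there. These need not be the same members. RCc3 was at 6.99 FPKM in IR29 salt and 41.0 in Pok salt, so for this gene the order of the genotypes turned. The summed FPKM of the 11 measured in the controls was 361.6 and 131.5 in IR29 (control, salt) and 290.7 and 428.7 in Pok. The part that the share of root RNA played in the other groups was not tested. Transporters of nitrogen, phosphate, sulfate and metals, some of which are root genes too, had 8 of 48 lower and 0 higher: zinc transporter 2, Os08g42170.1, was at 15.1 FPKM in IR29 control and 0.866 in Pok control.

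Loci of sodium and potassium transport were weakly represented in the polysomal RNA of both genotypes. Of 13 measured transcripts 2 were higher and 1 was lower in Pok control as deposited, and 0 higher and 1 lower after centring. Of all transcripts 6.77% were higher and 4.08% lower as deposited, and 3.55% and 5.64% after centring. The median of the 13 was -0.38 (-0.62 centred), where that of all was 0.24 (-0.04 centred). HKT transporters retrieve sodium from the xylem or admit it at the root. The transcript annotated OsHKT1 at Os02g07830.1 was at 4.82 and 3.50 FPKM in the controls of IR29 and Pok, under the level limit, and Os06g48810.1, annotated OsHKT2, was at 5.13 and 3.45. Os02g07830 is not the gene that the study calls OsHKT1, which is Os01g20160 and whose values are not given here. The vacuolar sodium/proton antiporter gene NHX1, Os07g47100.1, was at 6.93 FPKM in IR29 control and 14.6 in Pok control, past the limit as deposited and short of it after centring, and at 12.3 and 16.8 under salt. CIPK24, Os06g40370.1, the kinase of the SOS pathway of sodium export, was at 2.45 and 5.10 FPKM in the controls but at 11.04 and 6.41 in the salt libraries. The monovalent cation:proton antiporter Os09g11450.2 was the 1 member in which both Pok libraries (4.00 and 3.48 FPKM) were 2-fold below both IR29 libraries (8.95 and 10.6).

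Genes of dividing cells that passed the limits were all higher in Pok control, and fewer passed after centring. Of all transcripts 6.77% were higher and 4.08% lower as deposited, and 3.55% and 5.64% after centring. The cyclin and replication list lay under that higher share after centring. Of 39 transcripts in the core histone list 7 were higher and 0 lower (3 and 0 after centring), with a median of 0.60 (0.28 centred). Among the 3 was Os06g04020.1, annotated as histone H1 and so not a core histone. It was at 12.3 and 52.6 FPKM in IR29 (control, salt) and 31.9 and 72.6 in Pok. It was thus higher under salt in both genotypes, whereas Os03g17100.1 and Os01g31800.1, which also held, were lower. Of 90 transcripts for cyclins, cyclin-dependent kinases, MCM helicase subunits and replication factors, 10 were higher and 0 lower (2 and 0 after centring, where 3.55% of all transcripts were higher), with a median of 0.44 (0.16 centred), and the 2 that held were a cyclin-dependent kinase, Os01g72790.1 (5.49 and 15.1 FPKM), and the inhibitor of such kinases Os02g52480.1 (7.60 and 20.2 FPKM). Kinesins and tubulins, the motors and tracks of the microtubule cytoskeleton, had 6 of 45 higher and 0 lower (4 and 0 after centring), with a median of 0.62 (0.32 centred). The tubulin Os11g14220.1 was at 115 FPKM in IR29 control and 334 in Pok control, but at 85.2 and 121 in the salt libraries. The kinesin heavy chain isolog Os04g24410.1 was apart in both conditions, at 9.03 and 6.75 FPKM in IR29 control and salt and at 57.7 and 28.0 in Pok control and salt. A second locus with the same annotation, Os04g17700.1, had nearly the same values (11.2, 7.86, 58.4 and 28.9 in the same order), and reads shared between the copies cannot be told apart. The summed FPKM of the core histone list, histone H1 included, was 2241 in IR29 control and 3676 in Pok control. It was 1503 and 2058 in the salt libraries of IR29 and Pok.

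Leaf genes passed the limits in both directions, beside 6.77% higher and 4.08% lower of all transcripts. Of 14 chlorophyll A-B binding transcripts, the antenna proteins of the photosystems, 2 were higher and 0 lower (2 higher and 1 lower after centring), with a median of 0.31 (-0.01 centred). Of the 2 higher, Os08g33820.1 was listed at 0 in both IR29 libraries. The other, Os07g37550.1, was at 35.9 FPKM in IR29 control and 103 in Pok control. Other nuclear photosystem and electron transport transcripts had 3 of 32 higher and 3 lower, chlorophyll synthesis enzymes 2 of 15 higher and 0 lower, and plastid-type sequences, a list added after values were seen, 0 of 25 higher and 4 lower (8 after centring). The photosystem list held 2 transcripts listed at 0 in a control and the chlorophyll synthesis list held 1. Such zeros, taken up below, may be failed estimates and not differences. Of 22 transcripts of the Rubisco small subunit and Calvin cycle enzymes 0 were higher and 1 was lower. The summed FPKM of the Rubisco and Calvin cycle list was 2697 in IR29 control and 2374 in Pok control, against 652.0 and 1369.5 in the salt libraries of IR29 and Pok. The nuclear gene of the photosystem II 10 kDa polypeptide, Os07g05360.1 (chromosome 7, 2452961 to 2455612), was among the 15 largest upward ratios under the limits given for RALFL24, but with 15.6 and 74.3 FPKM in IR29 (control, salt) and 173 and 63.0 in Pok the genotypes overlapped. The rows annotated as the plastid-type protein PsbZ, Os01g58038.1 on chromosome 1 and Os02g24628.1 on chromosome 2, had identical values in all 4 libraries (1252 and 429.9 FPKM in IR29, control and salt, and 101.3 and 609 in Pok), so they are 1 measurement.

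Families of transcription factors differed in how many members passed. As deposited 6.77% of all transcripts were higher and 4.08% lower, and after centring 3.55% were higher and 5.64% lower. Of 131 MYB transcripts 12 were higher and 3 lower, but 4 and 3 after centring. Homeobox factors had 8 of 52 higher and 1 lower (2 and 1 after centring). Aux/IAA repressors and auxin response factors had 10 of 52 higher and 1 lower, and 7 and 2 after centring, with a median of 0.48 (0.19 centred). Of these 52, 5 were listed at 0 in a control, which may be failed estimates. In 3 both Pok libraries were at least 2-fold above both IR29 libraries. OsIAA14, Os03g58350.1, was at 7.13 and 7.45 FPKM in IR29 control and salt and at 24.6 and 12.1 in Pok. WRKY factors, regulators of defence genes, had 2 of 55 higher and 4 lower (2 and 5 after centring). The WRKY gene Os11g02520.1 was at 12.5 and 19.2 FPKM in IR29 and at 1.02 and 0.851 in Pok, with the other WRKY transcript Os12g02440.2 at 8.00 and 11.9 FPKM in IR29, 0.423 in Pok control and 0 in Pok salt. The MYB factor Os03g31230.1 rested on 1 low library: it was at 0.0326 FPKM in IR29 control and between 7.43 and 11.3 in the other three, and with the transcripts of its locus summed its ratio turned sign. None of 13 heat shock factor transcripts and 1 of 13 small heat shock protein transcripts passed the limit as deposited. The heat shock factors summed to only 47.6 FPKM in IR29 control and 55.6 in Pok control. Members under 5 FPKM in both controls could not pass, so this does not show that they were level.

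Genes that the study names were read in the same way, and since the study chose them on these libraries their direction is no independent evidence. Of 17 measured transcripts 8 were higher and 8 lower in Pok control as deposited, and 6 and 8 after centring. The nucleoside-triphosphatases Os11g25260.1 and Os11g25330.1 were at 27.3 and 41.3 FPKM in IR29 control and at 141 and 228 in Pok control. The peroxidase Os05g06970.1 was at 14.2 and 14.8 FPKM in IR29 (control, salt) and 3.83 and 27.3 in Pok. The DnaJ protein Os01g42190.1, a chaperone partner, was at 1.30 FPKM in IR29 control against 6.37 in Pok control, with 8.13 and 9.18 under salt. The iron/ascorbate-dependent oxidoreductase Os06g08041.1 and the thionin-like peptide Os07g24830.1 were the members for which both Pok libraries were at least 2-fold above or below both IR29 libraries, with the oxidoreductase at 1.37 and 1.01 FPKM in IR29 and 6.43 and 34.8 in Pok.

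The salt libraries share no library with the controls, so the direction of each control difference was looked up between them. Of the 613 transcripts higher in Pok control both ways, 199 (32.5%) were also at least 2-fold higher in Pok salt than in IR29 salt, 27 (4.40%) were lower, 225 were neither and 162 were below 5 FPKM in both salt libraries. Of the 703 lower transcripts 199 (28.3%) were lower in the salt pair too, 83 (11.8%) were higher, 282 were neither and 139 were below 5 FPKM. Among all 10625 transcripts considered, 7.72% were higher and 4.09% lower in the salt pair. A stricter rule, added after values were seen, asked that both Pok libraries be above 0 and at least 2-fold above both IR29 libraries, or the reverse. It was met by 208 transcripts higher in Pok (1.96%) and 187 lower (1.76%), of which 128 and 115 were above 0 in all 4 libraries.

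**Figure D4:**
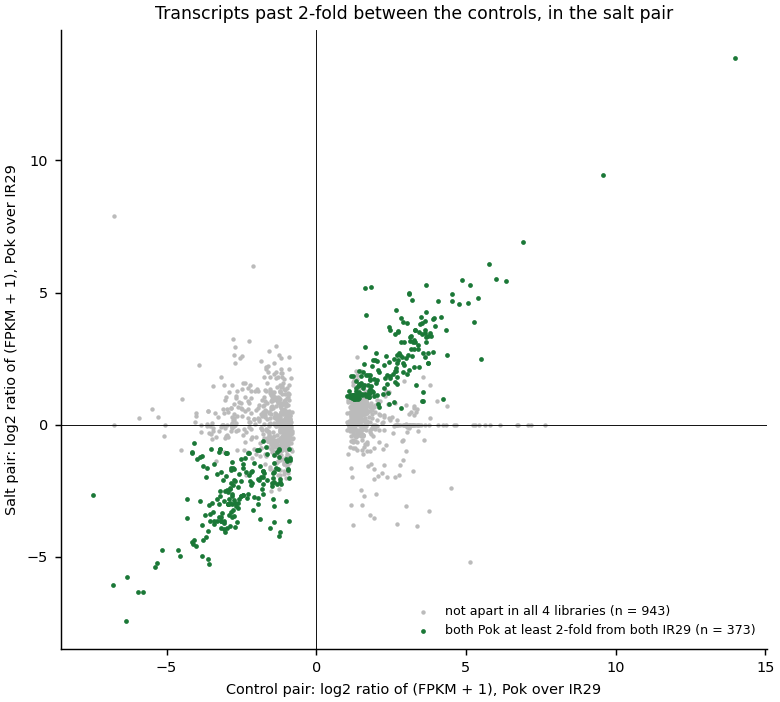
The 1316 transcripts past 2-fold between the controls both as deposited and after centring, by their log2 ratio of (FPKM + 1) in the control pair (x axis) and in the salt pair (y axis), Pok over IR29. Green points have both Pok libraries at least 2-fold above or below both IR29 libraries. Grey points scatter around 0 on the y axis, and those along its 0 line include transcripts listed at 0 in both salt libraries.

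Among the transcripts that met this stricter rule were enzymes of several kinds. Higher in both Pok libraries was an L-ascorbate oxidase, Os06g37150.1, an enzyme of the cell wall that oxidises ascorbate, at 9.75 and 33.8 FPKM in Pok control and salt against 0.165 and 0.309 in IR29. The sulfotransferase Os09g08190.1 was at 12.1 and 10.98 FPKM in Pok and at 0.875 and 0.923 in IR29. The universal stress protein transcript Os12g36640.2 was at 85.9 and 144 FPKM in Pok and at 14.9 and 11.2 in IR29. That these 3 genes were apart in both conditions follows from the rule by which they were picked. Lower in both Pok libraries was a phytase, an enzyme that releases phosphate from phytate: Os04g24340.1 was at 12.7 and 1.87 FPKM in IR29 and at 0.188 and 0.533 in Pok. The O-methyltransferase Os11g20090.1 was at 10.3 and 4.68 FPKM in IR29 and at 0.121 and 0.581 in Pok, and its neighbour Os11g20160.1 at 19.8 and 11.6 in IR29 and 2.78 and 3.03 in Pok. The cytochrome P450 Os08g39640.1 was at 12.1 and 16.3 FPKM in IR29 and at 0.847 and 1.78 in Pok. These enzymes were picked from the transcripts that met the rule after their values were seen. A transcript without a known function, Os01g57968.1 (chromosome 1, 33530895 to 33532660), named for its level, was listed at 0 in both IR29 libraries and at 16364 and 14865 FPKM in Pok control and salt, and whether the 0 is a failed estimate was not tested.

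Values listed at 0 need a separate reading, since the estimate of a locus can fail as a whole. In the controls 135 transcripts at 5 FPKM or more in Pok were listed at 0 in IR29 (100 of them also in IR29 salt), and 106 the other way (59 also at 0 in Pok salt). These 241 zeros lay in 148 assembled loci, and 67 of them in 4 loci. In a stretch of chromosome 2 (35067502 to 35345585) all 30 annotated transcripts that reached 5 FPKM in any library were listed at 0 in both IR29 libraries and none was in either Pok library, among them ribosomal protein L9, Os02g57670.1, at 80.2 FPKM in Pok control. In a stretch of chromosome 8 (28080609 to 28361771) all 15 were listed at 0 in both IR29 libraries and in Pok salt. A stretch of chromosome 10 (22354101 to 22441827) was the reverse, with all 5 at 0 in both Pok libraries, including the chlorophyllide a oxygenase Os10g41780.1, which makes chlorophyll b, at 40.9 FPKM in IR29 control and 40.8 in IR29 salt. Since these blocks hold ribosomal protein and chlorophyll genes that every green cell uses, such values are given only as listed at 0. An antenna protein of the photosystems, Os08g33820.1, was likewise at 769 and 693 FPKM in the Pok libraries and listed at 0 in both IR29 libraries.

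Some differences lay between transcripts of 1 gene. In 47 loci 1 annotated transcript was at least 2-fold higher in Pok control and another at least 2-fold lower, and in 41 of them the summed FPKM of the locus differed by less than 1.5-fold. After centring, 50 loci had opposite transcripts and such an even sum. Carbonic anhydrase, Os01g45274, which supplies bicarbonate in the leaf, had its transcript Os01g45274.3 at 15.1 FPKM in IR29 control and 56.2 in Pok control while Os01g45274.4 was at 479 and 175, and its sum was 625.7 and 433.0. S-adenosylmethionine synthetase, Os05g04510, which makes the methyl donor and the precursor of ethylene, had Os05g04510.1 at 84.6 FPKM in IR29 control and 194 in Pok control while Os05g04510.2 was at 176 in IR29 control and listed at 0 in Pok control, with sums of 260.4 and 194.0. For NADP-dependent malic enzyme, Os01g52500, Os01g52500.2 was at 19.2 and 43.9 FPKM and Os01g52500.4 at 23.2 and 0.633. Reads of overlapping transcripts are divided by the estimate, so for these genes the sum is the firmer value. The sums are as deposited, and after centring those of carbonic anhydrase and S-adenosylmethionine synthetase lie further apart.

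The size and level of transcripts moved with the calls. Among transcripts alone in their assembled locus, 30.1% of the 133 with a span of up to 600 nt were lower in Pok control and 13.5% were higher, with a median of -0.30, against 2.34% lower and 3.85% higher of the 598 over 4000 nt, with a median of 0.36. Between the salt libraries the medians of these bins were 0.21 and 0.04. Thionins, with a median locus span of 1111 nt, and RALF peptides, with 835 nt, are short genes. In the bin of 600 to 1000 nt 15.3% were lower and 12.5% higher with a median of 0.22, and in that of 1000 to 2000 nt 12.7% were lower and 13.2% higher with a median of 0.32. Of the 62 transcripts at a mean over 300 FPKM in the controls, 27.4% were lower and 4.84% higher in Pok control. The part of transcript length in the group differences was not tested.

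**Figure D5:**
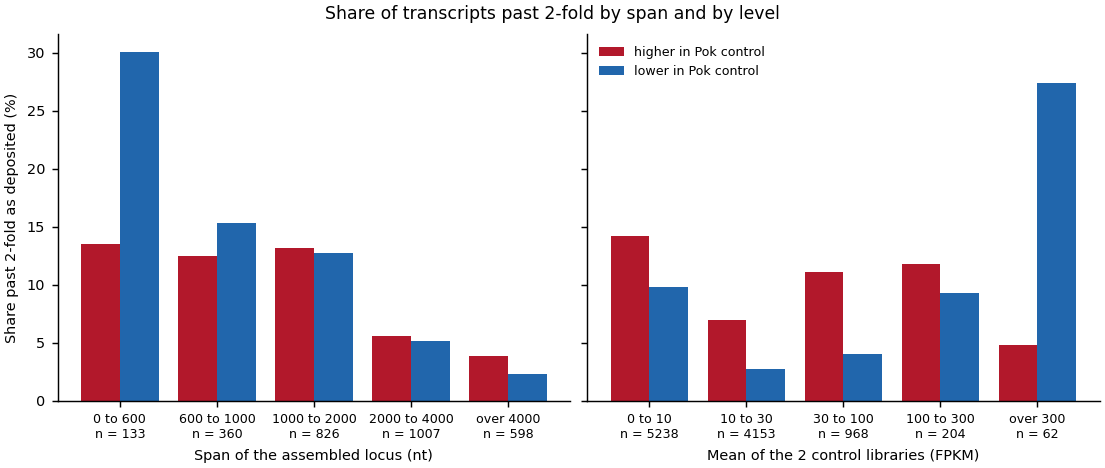
Share of transcripts (y axis, %) at least 2-fold higher (red) or lower (blue) in Pok control as deposited. Left, by the span of the assembled locus in nt, for transcripts alone in their locus; right, by the mean FPKM of the control libraries, for all transcripts considered. The shortest loci (30.1% lower) and the most abundant transcripts (27.4% lower) stand out on the lower side.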

How the data were processed

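Polysomal fractions of rice seedlings were pooled, poly(A) RNA was isolated and Illumina libraries were made, and the authors deposited FPKM values per assembled transcript, made with TopHat, Cufflinks and Cuffdiff (versions not given in the sources used here) against MSU v6.1. Such values divide reads among overlapping transcripts and carry no counts; read totals listed by the study were not used. A table of annotated transcripts (class code "=") was read with 4 sample columns, and 0 columns were left unused. Coordinates are the assembled locus, 1-based.

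A transcript was considered at 5 FPKM or more in 1 control and called at an FPKM ratio of 2, both as deposited and after division by the median ratio of transcripts at 5 FPKM or more throughout. Log2 ratios used a pseudocount of 1. Gene lists took members at a mean of 1 FPKM in the controls. List medians between the salt libraries took members at a mean of 1 FPKM in those libraries. With 1 library a side no test was run. Named transcripts were the 15 largest ratios per direction above 0 in the 4 libraries with a specific annotation (expressed, hypothetical and transposon proteins left out), up to 4 per list, genes of the study and of sodium and potassium transport, up to 10 listed at 0 per direction and up to 6 loci with opposite transcripts. Members, lists and rules were chosen with earlier results of these data known. Patterns of several lists (cysteine-rich DUF26 proteins, kinesins and tubulins, AP2 factors, leucine-rich repeat kinases, translation factors, chlorophyll synthesis, plastid-type sequences) were corrected after values were seen because they matched unrelated genes, and the rule on both libraries of each genotype was corrected so that a 0 against a 0 no longer counted. Members of the remaining lists were not all read one by one. The thionin list misses Os06g31930.1, and the core histone list includes the histone H1 Os06g04020.1. The transcripts just inside and outside the limit, THION26, RALFL9, Os01g05650.1, Os05g11320.1 and Os01g57968.1 were named after their values were seen, as were the genes given for both libraries of each genotype. The procedure was run on simulated data with an assumed spread, which 1 library a side cannot supply. Recovery was required only of 4-fold changes drawn at 10 FPKM or more. With changes drawn at 5 FPKM some fell below the level limit. A 2-fold change lies at the limit and was only partly recovered, so the simulation is no check on the 2-fold calls. Python 3.11.15, pandas 2.3.3, numpy 2.4.6 and matplotlib 3.10.9 were used.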

Additional observations from a re-analysis of the deposited data

Results flagged for a closer look

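Some differences between the controls had the opposite direction between the salt libraries. As deposited, 40 transcripts were at least 2-fold higher in Pok control and at least 2-fold lower in Pok salt, and 83 were lower in Pok control and higher in Pok salt. With 1 library per group the difference between the pairs was not tested.

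The widest gaps, given as the log2 ratio of the salt pair minus that of the control pair, were 8.12 for the metallothionein Os12g38300.1, which was at 6.27 and 5.67 FPKM in IR29 (control, salt) and at 0.690 and 429 in Pok, and 4.57 for the metallothionein Os12g38051.1 of the same assembled locus. The neighbouring lipid transfer proteins LTPL121 (Os04g46820.1) and LTPL120 (Os04g46810.1) had gaps of 5.08 and 5.06, and the glycine-rich wall protein Os10g31690.1 had 4.38. In the other direction were the GLTP domain protein Os02g40890.2 at -4.62, the chloride conductance regulator Os10g08879.2 at -4.56, the hydrolase Os10g32730.1 at -4.33, the polypyrimidine tract-binding protein Os05g36120.1 at -4.21 and the dehydrogenase transcript Os11g01154.4 at -4.20. Each was singled out because its control and salt differences ran opposite ways, and this was not tested.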

How the results depend on the processing

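No paired analysis was possible because each group had 1 library. The number of transcripts differing, 1870, became 4960 with a minimum of 1 FPKM, 986 with a minimum of 10 FPKM and 633 at a 4-fold limit, as fewer or more transcripts were admitted. The share of these that was higher in Pok control, 62.4%, became 38.7% after centring, 41.6% with upper quartile scaling, 54.0% and 65.8% at minimums of 1 and 10 FPKM, 48.3% at a 4-fold limit, 59.4% with the limit on log2 of (FPKM + 1) and 59.5% with the transcripts of a locus summed. The loci with opposite transcripts and an even sum numbered 20 in place of 41 at the narrower limit for an even sum, and listed zeros 102 at a minimum of 10 FPKM in place of 241. Of 74 gene lists 17 had a median below 0, against 50 after centring, 10 with members at a mean of 5 FPKM and 28 without a minimum. With each library scaled to the same median, 154 transcripts were higher and 235 lower in both Pok libraries. The named transcripts were chosen to pass after centring too, and a pseudocount does not enter the ratio of FPKM, so neither tests their calls. Of 243 named transcripts, with the transcripts of a locus summed, 208 stayed past 2-fold, 25 fell under 2-fold and 10 changed sign: Os02g05310.1 (0.041), Os03g12620.1 (-0.24), Os03g20310.1 (0.17), Os03g31230.1 (-0.10), Os03g37950.2 (0.22), Os05g24550.6 (0.47), Os06g37000.1 (0.45), Os07g36080.2 (0.26), Os07g47580.2 (-0.23) and Os08g25820.2 (-0.0297). The cause was not tested. Leaving out a library was not possible with 1 per group.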
